A study of Mus musculus with 3 samples.

Results

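The ligands, receptors and target genes of the Notch pathway were followed in lung endothelial cells of mice that had received melanoma cells. The members were chosen by gene symbol and are 10 of the 32285 genes in the count matrices: the ligands Dll4, Dll1, Jag1 and Jag2, the receptors Notch1 and Notch4, and the target genes Hey1, Hey2, Heyl and Hes1. They were measured in 31092 endothelial barcodes, each a droplet tag taken to stand for 1 cell. Gene positions are those of GENCODE M21 on GRCm38.

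Lungs came from male wild-type C57BL/6 mice of 8 to 10 weeks. The control library was made 6 h after a tail vein injection of 100 µl PBS. The other libraries were made 6 h or 30 h after 200000 B16-F10 cells, a mouse skin melanoma line carrying a green tracker dye, were injected in the same volume. No PBS library of 30 h was part of these data, so each comparison of the 30 h library with the control also compared 30 h with 6 h after an injection. All lungs were minced and digested with collagenase for 1 h at 37 °C, and endothelial cells were sorted as Pecam1+ Ptprc-, and the label of the 6 h melanoma library names sorted melanoma cells as well. Each library pooled the lungs of several mice. The labels give 2 mice per treatment and the study's methods 3 for this experiment, which was not settled here. Each group is 1 library, so no replicate error can be given and no p-value was computed, and every interval below is a 95% interval that covers counting error only.

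Notch signalling passes between touching cells. A ligand of the Delta or Jagged family on 1 cell binds a Notch receptor on its neighbour, the receptor is cut by proteases, and its inner part enters the nucleus, where it joins the DNA-binding protein Rbpj and switches on genes of the Hes and Hey families. These encode repressors of transcription. In endothelium the pathway is known for its part in arterial identity and in the choice between tip and stalk cells of a growing vessel, in which Dll4 and Notch1 are the best known pair. Lung capillaries hold general capillary cells (gCap) and aerocytes (aCap), large thin cells at the gas exchange surface.

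Promoters were taken from RefSeq (GRCm38.p6) for the 7 members that matched by symbol. Hey1, Heyl and Hes1 were not searched. The 7 promoters were searched on both strands for the letters CGTGGGAA, which hold the core that Rbpj is known to bind, in the 250 bases before a start and the first 10 bases from it on. Hey2 held these letters, once on each strand, and Dll4, Dll1, Jag1, Jag2, Notch1 and Notch4 did not. Of 32851 promoters of the same length, 215 (0.654%) held them. The shorter GTGGGAA, which lies within the longer run of letters, occurred in 1833 (5.58%), and of the 7 members searched again only in Hey2. Dll1 has more than 1 start in the table, and the outermost is used. The Hey2 promoter is shown as the target gene with the motif, in capitals, and the promoters of Dll4 and Dll1 as those of the Delta ligands whose levels are compared below. All are written 5′ to 3′ along the gene's own strand.
Hey2, chr10:30842774-30843033, minus strand: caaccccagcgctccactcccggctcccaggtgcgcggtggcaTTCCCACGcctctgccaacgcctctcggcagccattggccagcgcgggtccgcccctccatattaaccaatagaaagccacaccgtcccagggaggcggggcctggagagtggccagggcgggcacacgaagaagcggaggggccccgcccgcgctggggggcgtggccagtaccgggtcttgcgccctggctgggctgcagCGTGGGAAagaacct
Dll4, chr2:119325534-119325793, plus strand: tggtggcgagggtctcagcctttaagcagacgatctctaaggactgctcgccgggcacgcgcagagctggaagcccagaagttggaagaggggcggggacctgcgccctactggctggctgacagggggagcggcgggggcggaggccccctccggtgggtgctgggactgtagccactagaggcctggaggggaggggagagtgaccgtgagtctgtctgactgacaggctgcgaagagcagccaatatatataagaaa
Dll1, chr17:15376923-15377182, minus strand: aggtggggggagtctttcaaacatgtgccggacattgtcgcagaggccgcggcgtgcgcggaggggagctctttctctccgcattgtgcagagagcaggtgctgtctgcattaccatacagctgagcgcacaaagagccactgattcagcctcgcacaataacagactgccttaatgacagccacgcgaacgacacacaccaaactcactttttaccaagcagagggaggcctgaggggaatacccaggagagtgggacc
The first match in Hey2 began 207 bases before the start and read on the opposite strand, and the second began 5 bases before it and read on the gene's strand. A match of letters is a description and not a site of binding.

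The libraries were of like size. Barcodes with 1000 to 5000 detected genes, under 20% mitochondrial UMIs and at least 2 UMIs of Pecam1 and Cdh5 together were taken as endothelial. UMIs are the molecular tags by which captured RNA molecules are counted. The control, 6 h and 30 h libraries held 11231, 10583 and 9278 such barcodes, an order kept for every triplet of values below, with a median of 7782, 8033 and 8675.5 UMIs. Of the endothelial barcodes 26.6%, 33.9% and 32.1% also carried at least 2 UMIs of pericyte, smooth muscle, fibroblast, leukocyte, platelet or melanoma markers. Barcode sequences found in more than 1 library numbered 97. Classes were gated on markers that include no member. gCap held 6932, 6845 and 5125 barcodes, aCap 1194, 1021 and 1206, arteries 373, 328 and 367, veins 743, 540 and 582, and lymphatic cells (LEC) 80, 65 and 66. The remaining 1909, 1784 and 1932 barcodes got no class. They passed no gate, lacked a lead where gates competed, or held too many markers of another class. The classes carried genes known for them that the gates did not use: Car4 was at 2227 CPM in aCap and 210 CPM in gCap of the control library, and Gja5, an arterial connexin, was at 54.5 CPM in arteries and 1.32 CPM in gCap. CPM (counts per 1000000) is a gene's share of all UMIs of the summed barcodes on that scale. Arteries carried more fibroblast and smooth muscle RNA than gCap. Fibroblast markers summed to 259, 115 and 68.1 CPM in arteries and 11.2, 11.2 and 12.3 CPM in gCap. Smooth muscle markers summed to 59.2, 171 and 133 CPM in arteries and 15.7, 20.5 and 14.1 CPM in gCap. Pericyte markers, at 134, 38.7 and 54.5 CPM in arteries and 53.4, 45.7 and 63.0 CPM in gCap, were higher in arteries only in the control. The part of this RNA in the artery levels below was not tested.

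At 6 h, 1 of the 8 members with a mean of at least 5 CPM was past 1.5-fold of the control, Dll1, and it was higher. Of all 10175 genes at that level, 2.06% were past 1.5-fold higher and 1.36% lower. At 30 h, 2 of 8 members were past 1.5-fold of the control, Dll1 and Hes1, both higher, where 4.85% of all genes were higher and 5.01% lower. Between 30 h and 6 h, 1 of 8 was past 1.5-fold, Hes1, again higher, beside 5.21% of all genes higher and 5.28% lower. The median log2 ratio of the 8 members was 0.07 at 6 h and 0.26 at 30 h against the control, and that of all genes was −0.01 and −0.07. The comparisons at 6 h and 30 h share the control library.

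By class, few of the members with a mean of at least 5 CPM in that class were past 1.5-fold. At 30 h against the control the higher ones were Dll1 and Hes1 in gCap, arteries and veins alike, and at 6 h Dll1 in gCap and arteries. Between 30 h and 6 h Hes1 was higher in gCap, arteries, veins and LEC, and Notch4 in arteries and aCap. The others were Jag2 in aCap, higher at 30 h against both, Jag1 in aCap, lower at 30 h than at 6 h, Hey1 in veins, lower at 30 h than in the control, and in LEC Hey1 at both times and Jag2 at 30 h, higher than in the control. In gCap 1 of 8 was higher at 6 h, 2 of 8 at 30 h and 1 of 8 between 30 h and 6 h, where 2.52%, 4.94% and 5.09% of 10019 genes were higher and 1.37%, 5.29% and 5.45% lower. In aCap, 7 members were above 5 CPM and 0, 1 and 2 were higher and 0, 0 and 1 lower, where 1.59%, 6.65% and 7.36% of 9765 genes were higher and 1.31%, 8.35% and 8.38% lower. In arteries, 9 were above 5 CPM and 1, 2 and 2 were higher and 0 lower, where 5.18%, 7.64% and 7.38% of 10438 genes were higher and 5.26%, 11.2% and 9.95% lower. In veins, 0, 2 and 1 of 8 were higher and 0, 1 and 0 lower, where 3.13%, 5.62% and 5.89% of 10150 genes were higher and 3.27%, 6.96% and 6.33% lower. In LEC, where counts are small, 1, 2 and 1 of 8 were higher and 0 lower, where 14%, 14.1% and 15.1% of 10630 genes were higher and 15.9%, 16.9% and 16.8% lower. Each of these counts rests on 1 or 2 genes. Under an alternative, Dll1 and Notch4 in arteries and Hey1 in LEC each changed sides in a comparison listed here, as given in the section on processing.

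**Figure D1:**
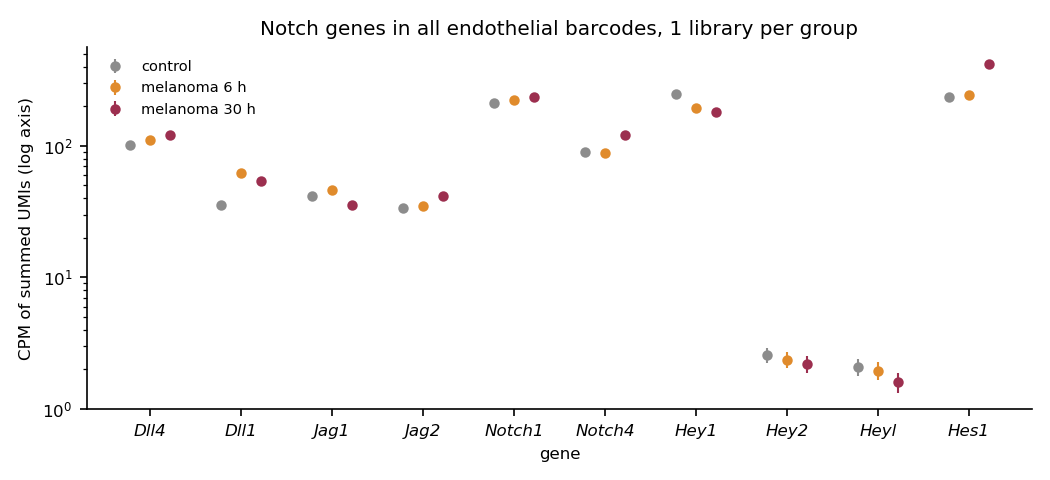
CPM of each of the 10 members (log axis) in all endothelial barcodes of the 3 libraries, as points with 95% Poisson intervals that cover counting error only. Dll1 was lowest in the control library and Hes1 was highest at 30 h, Hey1 stepped down from 247 to 181 CPM, and Hey2 and Heyl lay under 3 CPM in every library.

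Dll1 (chromosome 17, 15367354 to 15376872, minus strand), a Delta ligand, was the member that stood apart at 6 h. Its levels were 35.7, 61.7 and 54.4 CPM. Both melanoma libraries were above the control, 1.73-fold at 6 h (log2 ratio 0.79, interval 0.73 to 0.85) and 1.52-fold at 30 h (log2 ratio 0.61, 0.54 to 0.67). The 30 h library was below the 6 h library (log2 ratio −0.18, −0.24 to −0.13). Without the barcodes that carried other cells' markers the levels were 36.9, 60.0 and 55.3 CPM, and the 30 h ratio of 0.58 then fell just short of 1.5-fold.

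The classes differed in how much Dll1 they carried. Veins had the highest levels, 77.5, 92.3 and 118 CPM. gCap followed with 39.0, 70.4 and 64.5 CPM, and arteries with 24.7, 45.4 and 38.6 CPM. In aCap Dll1 was at 2.98, 4.80 and 2.70 CPM, under gCap in each library. Free RNA would bring 2.45, 1.59 and 2.90 CPM there, from the gene's level in empty droplets and the estimated share of free RNA. That share was read from epithelial and red cell genes, with all their UMIs in a class taken as free RNA. It differed widely within a library, at 12.8% in gCap and 2.86% in aCap at 6 h. At 30 h it was 14.3% in veins and 2.55% in arteries, so values that rest on it are rough. The LEC values of 19.9, 19.3 and 21.4 CPM rested on 14, 11 and 14 UMIs, and their intervals overlapped.

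In gCap the log2 ratio to the control was 0.85 (0.77 to 0.93) at 6 h and 0.73 (0.64 to 0.81) at 30 h. In veins the ratio was 0.25 (0.08 to 0.42) at 6 h and 0.61 (0.45 to 0.76) at 30 h. Arteries had ratios of 0.88 (0.48 to 1.28) and 0.64 (0.24 to 1.05), from 84, 142 and 139 UMIs. When barcodes were thinned to 2000 UMIs before gating, the artery ratios were 0.34 and −0.26, from 7, 8 and 8 UMIs, and the vein ratio at 30 h 0.33, all under 1.5-fold. Between 30 h and 6 h the ratio in gCap was −0.13 (−0.20 to −0.055), and 0.055 when thinned, and in veins 0.35 (0.19 to 0.52), and 0.18 when thinned. The difference between classes was not tested. The 15 immediate early genes, which respond to digestion as well as to signals in the animal, were together at 9824, 13324 and 7237 CPM in all endothelial barcodes, highest at 6 h like Dll1 and lowest at 30 h unlike it. The summed leukocyte markers (89.4, 134 and 74.0 CPM) and melanoma markers (1.90, 14.8 and 1.31 CPM) were also highest at 6 h. The part of the immediate early genes in these ratios was not tested.

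Dll4 (chromosome 2, 119325784 to 119335962, plus strand), the Delta ligand of arteries and sprouting tips, varied less between libraries than between classes. It was at 102, 111 and 120 CPM, with log2 ratios to the control of 0.12 (0.08 to 0.17) and 0.24 (0.20 to 0.28), both under 1.5-fold. Arteries carried 191, 171 and 221 CPM, gCap 108, 117 and 134 CPM, and aCap 106, 111 and 110 CPM. The intervals of gCap and aCap overlapped in the first 2 libraries and not at 30 h. Veins carried 20.2, 20.4 and 14.7 CPM, 5.35-fold and 5.73-fold less than gCap in the control and 6 h libraries. Arteries, gCap and veins thus stood in opposite order for Dll1 and Dll4, with veins highest for the first and lowest for the second.

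Jag1 (chromosome 2, 137081456 to 137116644, minus strand), a Jagged ligand, was at 41.3, 46.1 and 35.6 CPM. The 6 h library was the highest and the 30 h library the lowest, with a log2 ratio between them of −0.37 (−0.44 to −0.31). The immediate early genes (9824, 13324 and 7237 CPM) and leukocyte markers (89.4, 134 and 74.0 CPM) had the same order, and their part was not tested. Veins were at 56.0, 69.0 and 59.8 CPM, arteries at 53.9, 47.0 and 48.4 CPM, gCap at 46.2, 51 and 40.0 CPM, and aCap at 11.8, 17.0 and 8.91 CPM. In aCap the step from 6 h to 30 h was −0.93 (−1.28 to −0.59), past 1.5-fold. Over the 15 sums of 5 classes and 3 libraries, the log2(CPM + 1) values of Dll1 and Jag1 had a Pearson correlation of 0.95, the highest of the 28 pairs of the 8 members above 5 CPM. The sums of a class share their cells' identity and those of a library its depth, so the value is a description.

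Jag2 (chromosome 12, 112907819 to 112929776, minus strand), the other Jagged ligand, was at 33.9, 34.6 and 41.2 CPM, with a log2 ratio of 0.28 (0.21 to 0.35) at 30 h against the control. Among the blood vessel classes veins were lowest, as they were for Dll4, with 20.2, 22 and 14.8 CPM. aCap held 33.6, 29.4 and 53.5 CPM, and at 30 h aCap was above gCap (40.8 CPM). In aCap the log2 ratio was 0.67 (0.49 to 0.85) at 30 h against the control and 0.86 (0.67 to 1.06) against 6 h, from 406, 306 and 714 UMIs. The first of these was 0.54 without the barcodes of other cells' markers, under 1.5-fold.

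**Figure D2:**
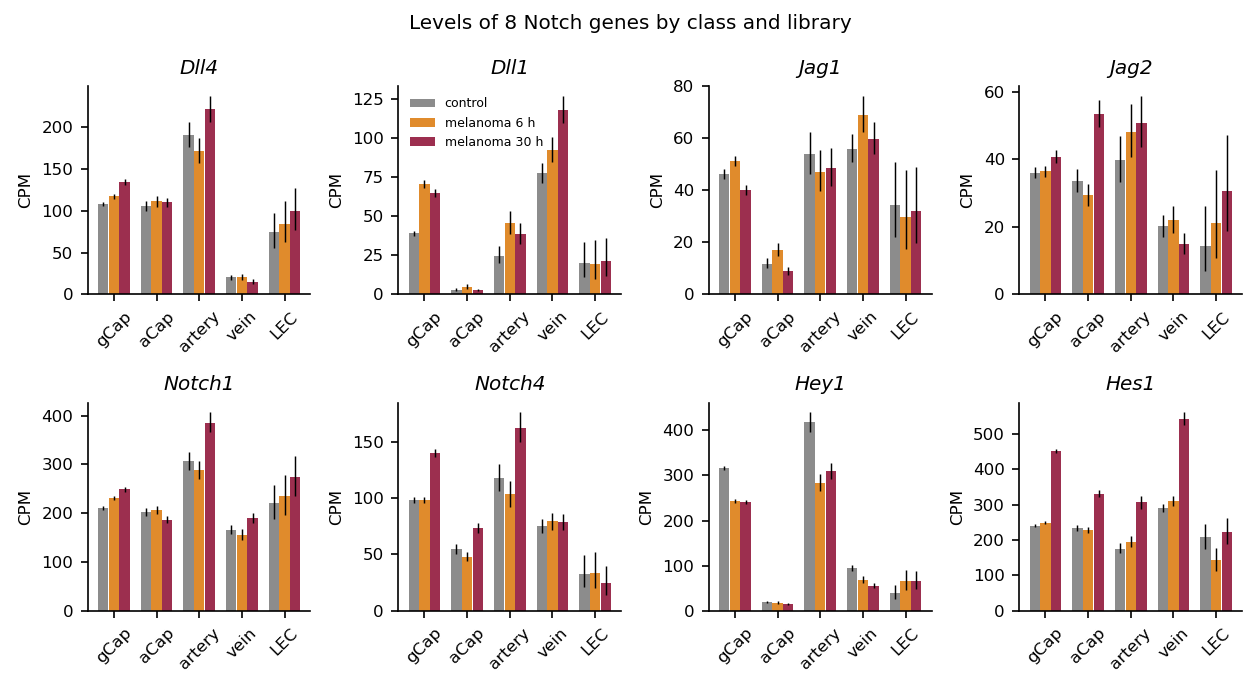
CPM (bars from 0, each panel with its own axis) of 8 members in gCap, aCap, arteries, veins and LEC of the 3 libraries, with 95% Poisson intervals for counting error only. Dll1 and Jag1 were lowest in aCap, Dll4 and Jag2 were low in veins, and Hes1 at 30 h exceeded the other libraries in gCap, aCap, arteries and veins.

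In all endothelial barcodes both receptors were higher at 30 h than in the control, and arteries carried the most of each, with Notch4 at 6 h not apart from gCap beyond counting error. Notch1 (chromosome 2, 26457903 to 26516663, minus strand), the main receptor for Dll4 in endothelium, was at 210, 223 and 235 CPM, with a log2 ratio of 0.16 (0.13 to 0.19) at 30 h against the control. It was found in every class, with 307, 288 and 386 CPM in arteries, 211, 231 and 249 CPM in gCap, 203, 206 and 186 CPM in aCap and 166, 156 and 190 CPM in veins. At 30 h it was above the control in gCap (0.24, 0.20 to 0.28), arteries (0.33, 0.21 to 0.45) and veins (0.19, 0.08 to 0.31), and below it in aCap (−0.12, −0.20 to −0.04). All of these are under 1.5-fold.

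Notch4 (chromosome 17, 34564268 to 34588503, plus strand), a receptor found mostly in endothelium, was at 89.1, 87.5 and 121 CPM. The control and 6 h libraries overlapped in their intervals, and the 30 h library was above both, with log2 ratios of 0.44 (0.39 to 0.48) and 0.46 (0.42 to 0.51). In gCap it was at 98.4, 98.3 and 140 CPM, with a ratio of 0.51 (0.45 to 0.56) at 30 h against the control. Arteries held 118, 103 and 162 CPM and aCap 54.8, 48.2 and 73.5 CPM. Against 6 h both were past 1.5-fold higher at 30 h, 0.65 (0.45 to 0.85) in arteries and 0.61 (0.45 to 0.77) in aCap. With barcodes thinned to 2000 UMIs before gating these were −0.13 and 0.49. In veins the levels of 75.4, 79.2 and 78.3 CPM had overlapping intervals, and the ratio at 30 h was 0.06 (−0.12 to 0.23).

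Of the target genes, Hes1 was above the control in the 30 h library and Hey1 below it in both melanoma libraries. Hes1 (chromosome 16, 30064384 to 30067796, plus strand), a repressor that also answers to signals other than Notch, was at 236, 244 and 418 CPM. The 30 h library stood above both others, 1.77-fold over the control (log2 ratio 0.82, 0.80 to 0.85) and 1.71-fold over 6 h (0.77, 0.75 to 0.80). The first 2 libraries lay close together (0.05, 0.02 to 0.08). In gCap Hes1 was at 240, 249 and 451 CPM, in aCap at 234, 228 and 331 CPM, in arteries at 176, 195 and 307 CPM, and in veins at 290, 310 and 542 CPM. Against 6 h the ratio at 30 h was above 0 in each of the 5 classes, 0.86 (0.83 to 0.89) in gCap, 0.54 (0.47 to 0.61) in aCap, 0.65 (0.51 to 0.79) in arteries, 0.81 (0.72 to 0.89) in veins and 0.65 (0.25 to 1.06) in LEC. Only the aCap ratio was under 1.5-fold. The LEC levels were 208, 142 and 223 CPM, from 146, 81 and 146 UMIs, so the LEC of 6 h lay under both others.

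Hey1 (chromosome 3, 8663359 to 8667256, minus strand), the Hey repressor of arteries and capillaries, was at 247, 195 and 181 CPM. Both melanoma libraries were below the control, by 1.26-fold (log2 ratio −0.34, −0.37 to −0.31) and by 1.36-fold (−0.45, −0.48 to −0.42), each under 1.5-fold. The summed epithelial markers (835, 608 and 380 CPM) and the red cell gene Hbb-bs (1573, 1045 and 403 CPM) were likewise highest in the control and lowest at 30 h. Under the 11 alternatives, subtraction of free RNA among them, the ratio of Hey1 ranged from −0.38 to −0.32 at 6 h, and from −0.49 to −0.37 in the 30 h library. In gCap it was at 316, 244 and 241 CPM, both melanoma libraries under the control and not apart from each other beyond counting error (−0.02, −0.06 to 0.02). Arteries held 417, 284 and 309 CPM, and their ratio at 30 h of −0.43 was 0.12 when thinned before gating. In arteries the pericyte markers (134, 38.7 and 54.5 CPM) were highest in the control too. So were their fibroblast markers (259, 115 and 68.1 CPM) and epithelial markers (833, 168 and 129 CPM). The smooth muscle markers of arteries (59.2, 171 and 133 CPM) were lowest in the control, and the part of such RNA was not tested. Veins held 95.1, 69.3 and 55.7 CPM, with a ratio at 30 h of −0.77 (−0.96 to −0.59), past 1.5-fold, and of −0.55 when barcodes of at least 300 genes with no upper limit were taken. aCap held 20.1, 18.4 and 14.3 CPM, under gCap in each library, where free RNA would bring 16.5, 4.48 and 8.67 CPM. The ratio of aCap at 30 h to the control, −0.49 (−0.77 to −0.21), was 0.61 with free RNA subtracted, and that at 6 h, −0.13 (−0.41 to 0.15), was 1.86. Both subtracted ratios rest on estimated shares of 8.27%, 2.86% and 6.49% of aCap UMIs. The same aCap barcodes carried Notch1 at 203, 206 and 186 CPM and Dll4 at 106, 111 and 110 CPM, as given above.

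Hey2 and Heyl were rare. Hey2 (chromosome 10, 30832359 to 30842801, minus strand), the target gene whose promoter is shown above, gave 232, 206 and 179 UMIs, or 2.55, 2.36 and 2.20 CPM, with overlapping intervals. Arteries held most of it per UMI, 9.71, 12.8 and 10.3 CPM, which is 3.54-fold, 5.80-fold and 4.97-fold over gCap. The artery class also held the fibroblast and smooth muscle RNA given above. Its Hey2 ratio at 6 h to the control, 0.40 (−0.30 to 1.11), was −0.31 without the barcodes of other cells' markers. In veins there were 3, 1 and 0 UMIs. The 30 h count of 0 lay under a floor of 0.479 CPM, with a 95% upper limit of 0.589 CPM. LEC had 0 UMIs in each library, under floors of 4.27, 5.27 and 4.58 CPM and with upper limits of 5.25, 6.48 and 5.64 CPM.

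Heyl (chromosome 4, 123233556 to 123249875, plus strand), which is known from pericytes and smooth muscle, gave 189, 170 and 130 UMIs, or 2.08, 1.95 and 1.60 CPM. Once the barcodes with at least 2 UMIs of other cells' markers were left out, 16.9%, 22.4% and 23.1% of its UMIs remained, against 70.3%, 62.9% and 65.9% of all UMIs. Its level was then 0.501, 0.692 and 0.559 CPM. For the other 9 members the share left lay between 54.9% and 72.7%. Beside this, the 5 pericyte markers were together at 72.4, 55.6 and 67.3 CPM in the endothelial barcodes.

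**Figure D3:**
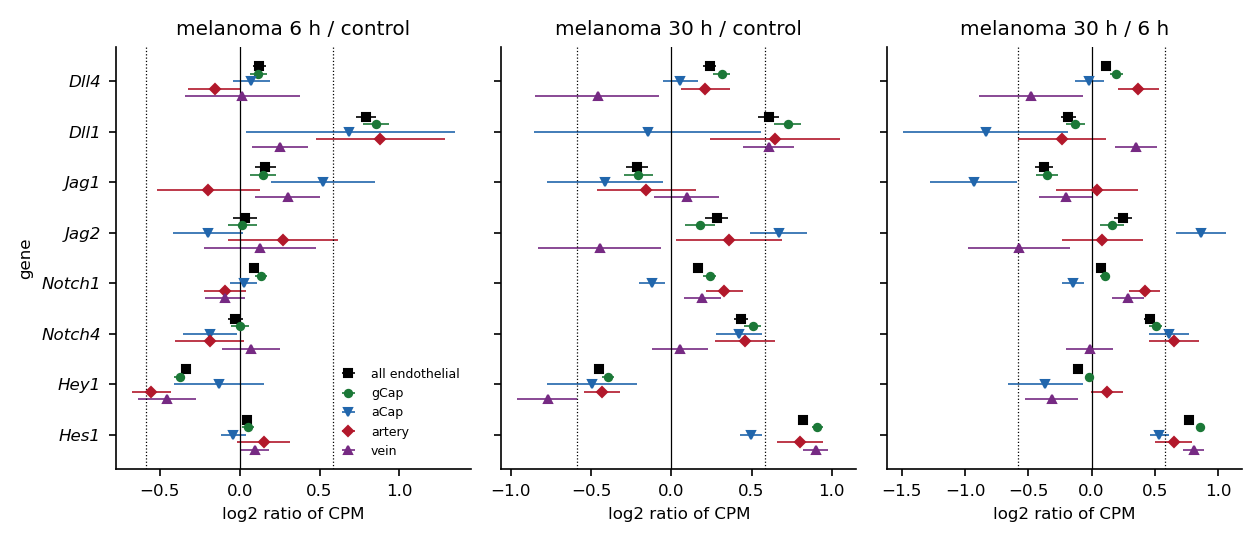
Log2 ratios of CPM between libraries for the 8 members above 5 CPM, in all endothelial barcodes and in gCap, aCap, arteries and veins, with 95% intervals for counting error only; dotted lines mark 1.5-fold. At 6 h Dll1 lay right and Hey1 left of 0, and at 30 h against the control Hes1 lay right of 0 in all classes drawn while Dll4 and Jag2 lay left of 0 in veins only, a side that turned when barcodes were thinned before gating.

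To compare shares of barcodes with a UMI at 1 depth, each barcode was thinned to 2000 UMIs, and 91, 83 and 44 gCap barcodes with fewer were left out. A Dll1 UMI was seen in 7.09% (6.49 to 7.72), 11.7% (10.9 to 12.4) and 11.6% (10.7 to 12.5) of gCap barcodes. Unthinned, the shares were 21.8%, 34.0% and 34.3%. Hes1 was seen in 31.6%, 30.8% and 47.4% of thinned gCap barcodes (58.0%, 59.4% and 74.8% unthinned), Hey1 in 43.4%, 34.6% and 35.1% (75%, 67.5% and 72.0%), Notch4 in 16.8%, 17.2% and 24.5% (46.0%, 48.9% and 61.1%) and Dll4 in 18.8%, 20.3% and 21.5% (47.0%, 49.2% and 53.9%). Thus more gCap barcodes held a UMI of Dll1 at both 6 h and 30 h than in the control, and more held one of Hes1 and Notch4 at 30 h, while fewer held one of Hey1 in both melanoma libraries. Notch4 in gCap was at 98.4, 98.3 and 140 CPM, where free RNA would bring 9.52, 9.45 and 9.23 CPM.

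Free RNA gives UMIs to droplets of any kind. In barcodes of the same filters with under 2 UMIs of Pecam1 and Cdh5, which can hold other kinds of cell as well as free RNA, median depth 2504 to 2770 UMIs against 7174.5 to 8136 in gCap, 213, 279 and 205 of them after 62, 66 and 30 shallower ones were left out, the thinned shares were 1.88%, 3.23% and 1.46% for Dll1, 22.1%, 18.6% and 21.0% for Hes1, 20.7%, 11.8% and 13.2% for Hey1, and 7.51%, 6.09% and 3.41% for Dll4. The gCap shares were above each of these, the smaller of which rest on few positive barcodes and are rough. Dll1 in aCap (1.01%, 0.882% and 0.583%) and Hey1 in aCap (4.44%, 3.73% and 3.25%) were under the shares in this comparison set. Their levels at 6 h, of 4.80 and 18.4 CPM, were above the 1.59 and 4.48 CPM that free RNA would bring, and aCap Dll1 at 30 h, at 2.70 CPM, was not (2.90 CPM). Hey2 in gCap (0.526%, 0.429% and 0.472%) was also under the shares in this set, a comparison that few barcodes decide. Its gCap levels of 2.75, 2.21 and 2.07 CPM were above those that free RNA would bring. These were 0.224, 0.388 and 0.241 CPM, at the estimated share of free RNA in gCap UMIs. Heyl in gCap (0.219%, 0.281% and 0.394% of barcodes) was at 1.44, 1.27 and 1.28 CPM, where free RNA would bring 0.609, 0.216 and 0.483 CPM. Dll4 in veins, at 3.5%, 3.34% and 3.96%, was under that share in the control and 6 h libraries and above it at 30 h. Its levels in veins of 20.2, 20.4 and 14.7 CPM stood beside 5.76, 5.92 and 17.1 CPM expected from free RNA, so the vein level was above that expectation in the control and 6 h libraries and under it at 30 h. The 30 h expectation rests on a share of 14.3%, read in part from epithelial genes. These were together at 400, 156 and 634 CPM in veins, and whether they came from free RNA was not tested.

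**Figure D4:**
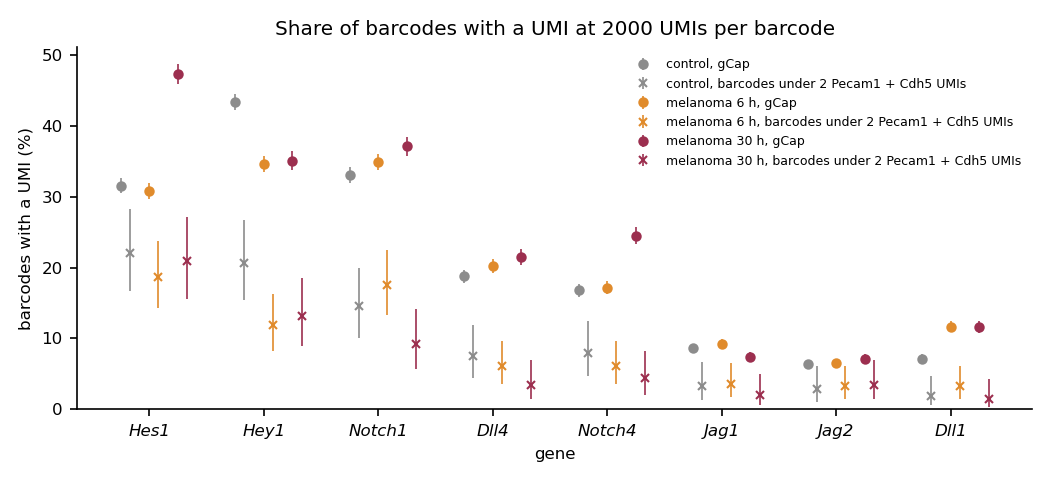
Percent of barcodes with at least 1 UMI of 8 members after thinning to 2000 UMIs, for gCap (circles) and for barcodes under 2 UMIs of Pecam1 and Cdh5 (crosses), with 95% Clopper-Pearson intervals for counting error only. Hes1 and Notch4 in gCap were highest at 30 h, Hey1 was highest in the control library, and Dll1 was lowest in the control library.

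Members shared gCap barcodes to different degrees. Hey1 was in 52.1% of the thinned gCap barcodes with a Dll4 UMI and in 41.4% of those without, both of the control library. At 6 h these shares were 38.7% and 33.6%, and at 30 h 40.2% and 33.7%. Barcodes with and without a Dll1 UMI had Hey1 in 42.9% and 43.4% of the control library, in 33.6% and 34.8% of the 6 h library, and in 33.1% and 35.4% of the 30 h library. The shares with and without the ligand thus lay further apart for Dll4 than for Dll1. Hes1 was in 31.0% of control barcodes with Hey1 and in 32.0% of those without. These shares mix cells of 1 library and are descriptions.

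Within gCap, barcodes with Esm1, a gene known from tip cells, were set beside the rest. They numbered 166, 225 and 199. Dll4 was at 247, 242 and 294 CPM in them and 104, 112 and 127 CPM in the rest, log2 ratios of 1.24 (1.08 to 1.41), 1.11 (0.97 to 1.24) and 1.21 (1.07 to 1.34). Hey1 was at 482, 367 and 414 CPM against 312, 239 and 233 CPM, and Notch1 at 330, 313 and 397 CPM against 208, 228 and 243 CPM. Hes1 went the other way, at 196, 202 and 258 CPM against 241, 251 and 459 CPM. At 30 h the ratio for Hes1 was −0.83 (−0.97 to −0.69), where it had been −0.30 (−0.48 to −0.12) in the control library. Jag2 was lower in Esm1 barcodes as well, with log2 ratios of −0.78, −0.75 and −0.62 from 28, 43 and 46 UMIs.

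Barcodes of gCap with Ntrk2, a gene listed here for the artery side of gCap, numbered 877, 757 and 1279. Whether they lie toward arteries was not tested. Dll4 was lower in them, at 86.0, 91.7 and 109 CPM against 112, 121 and 144 CPM. So were Dll1, with log2 ratios of −0.44, −0.40 and −0.21, Hey1 (−0.28, −0.16 and −0.07) and Notch1 (−0.16, −0.08 and −0.12). Notch4 had ratios of −0.10, −0.13 and −0.14, the first with an interval that held 0. Hey2 was higher, at 7.52, 4.72 and 2.74 CPM against 1.90, 1.85 and 1.81 CPM, with log2 ratios of 1.98 (1.47 to 2.49), 1.35 (0.71 to 1.96) and 0.60 (−0.08 to 1.25). The last interval holds 0, and the counts were 58, 31 and 32 UMIs. Jag2 was also higher, by 0.38 (0.21 to 0.55), 0.34 (0.15 to 0.52) and 0.42 (0.27 to 0.56). Hes1 had ratios of 0.23, 0.04 and 0.13, the second with an interval that held 0. By point values, Dll4, Notch1, Notch4 and Hey1 were higher in arteries than in gCap but lower in these barcodes, and Hes1 the reverse. Hey2 and Jag2 were higher in both, and Dll1 lower in both. Ntrk2 barcodes were deeper, at a median of 8358, 8357 and 8829 UMIs against 7020, 7545.5 and 7869.5 UMIs. Ntrk2 itself was at 20.6, 18.3 and 41.5 CPM in all endothelial barcodes. The part of depth and of the Ntrk2 level was not tested.

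Barcodes of gCap with at least 2 of Pim3, Bcl3, Tmem252 and Inhbb, the marker panel of reactive capillaries, numbered 1438, 2607 and 1170. Dll1 was higher in them, at 45.2, 86.7 and 77.3 CPM against 36.9, 57.8 and 59.8 CPM in the rest. Those are log2 ratios of 0.29 (0.15 to 0.43), 0.58 (0.49 to 0.68) and 0.37 (0.25 to 0.49). Hes1 was also higher, by 0.22 (0.16 to 0.27), 0.25 (0.20 to 0.30) and 0.15 (0.11 to 0.20). Dll4 had ratios on both sides of 0, of −0.24 (−0.33 to −0.15) in the control library, 0.08 (0.0043 to 0.15) at 6 h and −0.13 (−0.22 to −0.04) at 30 h. With at least 3 of the genes the Dll4 ratios were −0.15 (−0.34 to 0.03), 0.26 (0.17 to 0.35) and 0.05 (−0.10 to 0.21). Those of Hes1 were then 0.22 (0.11 to 0.33), 0.21 (0.15 to 0.27) and 0.0033 (−0.083 to 0.088), so no Hes1 difference was seen at 30 h. Barcodes with fewer than 2 of the genes too held more Dll1 at 6 h than in the control. Hey1 was lower, at 291, 218 and 209 CPM against 324, 264 and 252 CPM. Barcodes with at least 2 of the genes were deeper, at a median of 8522, 8615 and 9325 UMIs against 6814, 6998 and 7700 UMIs, and the part of depth was not tested.

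Of 73 other genes of the pathway, 57 passed the level of 5 CPM. At 6 h, 2 were past 1.5-fold higher than the control and 0 lower, at 30 h 5 were higher and 1 lower, and between 30 h and 6 h 4 were higher and 2 lower, where the shares of all genes are those given for the members. Their median log2 ratio was 0.02 at 6 h and −0.04 at 30 h against the control.

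Of the genes higher at 30 h, 3 were among the 9 other Hes genes and targets above 5 CPM, and 1 was among the 8 inhibitors. Nrarp, a feedback inhibitor of Notch signalling, was at 20.7, 27.0 and 50.9 CPM, a log2 ratio of 1.29 at 30 h against the control. In arteries it was at 29.1, 25.3 and 100.1 CPM and in gCap at 21.0, 28.7 and 57.7 CPM, whereas in aCap it was at 12.2, 14.1 and 13.5 CPM. Gja5, the arterial connexin, was at 3.48, 4.83 and 15.3 CPM (log2 ratio 2.14), and in arteries at 54.5, 66.5 and 208 CPM. Ccnd1, a cyclin of the early cell cycle, was at 115, 170 and 308 CPM (1.41), and Unc5b, a guidance receptor of arterial and tip cells, at 13.9, 19.8 and 25.7 CPM (0.89).

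Other parts of the machinery gave few genes past 1.5-fold. Neurl1b, a ligase for Notch ligands, was at 6.24, 6.43 and 9.94 CPM (0.67 at 30 h). Kat2b, an acetyltransferase, was the gene past 1.5-fold lower at 30 h, at 161, 153 and 97.2 CPM (−0.73). At 6 h the genes past 1.5-fold were Neurl3, at 20.7, 39.4 and 23.7 CPM (0.93), and Bhlhe40, a repressor related to Hes, at 13.8, 21.7 and 19.8 CPM (0.65). Neurl3 was back under 1.5-fold of the control at 30 h. Of the 5 enzymes that add sugars to the receptors, the 9 proteases and the 5 factors listed under arterial identity above 5 CPM, 0 were past 1.5-fold in any of the 3 comparisons. That last list also holds Nr2f2, a factor of venous identity, at 408 CPM in veins and 71.8 CPM in arteries of the control library. Rbpj itself was at 54.6, 53.3 and 56.5 CPM. Myc was under the level for testing, and had 1.44, 10.3 and 1.17 CPM. It was named after its values were seen.

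**Figure D5:**
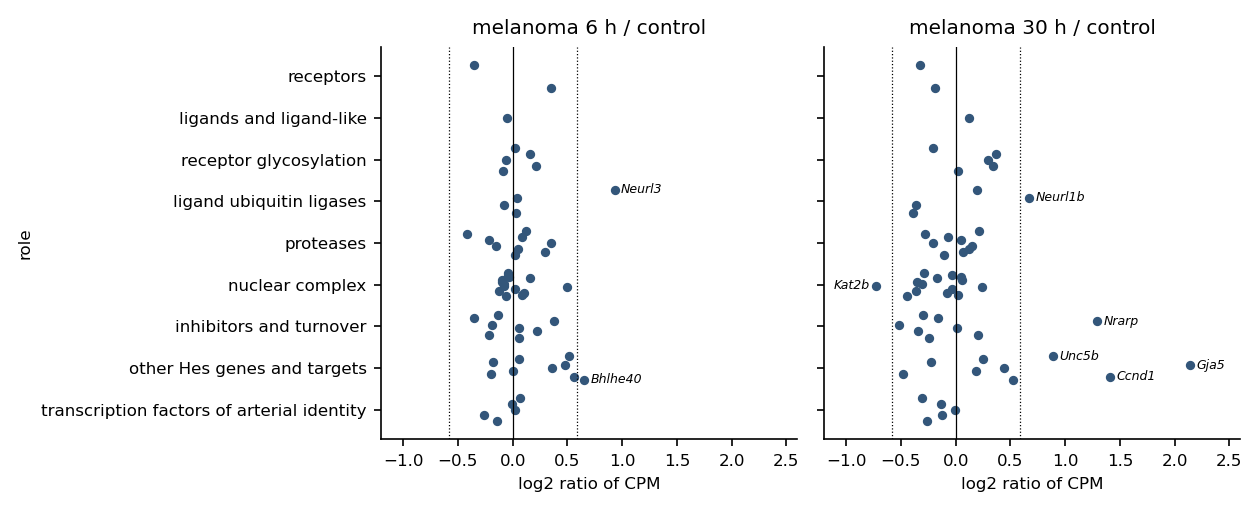
Log2 ratios of CPM at 6 h (left) and 30 h (right) against the control in all endothelial barcodes for the 57 other pathway genes above 5 CPM, 1 point a gene, grouped by role; dotted lines mark 1.5-fold and genes past it are named. At 30 h Gja5, Ccnd1, Nrarp, Unc5b and Neurl1b lay to the right of the line and Kat2b to the left.

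The genes most like each member were sought among 10554 genes over the 15 sums of class and library, by Pearson correlation of log2(CPM + 1). Dll1 was most like H2-Aa (0.98), Adamts1 (0.97) and H2-Eb1 (0.97), and Jag1 most like Itga5 (0.97), Frmd4a and Cemip2 (both 0.96). Hey1 was most like Cyp2d22 (0.98), Bnip2 and 4930549C15Rik (both 0.97), and Hey2 most like Esm1 (0.96), Gm35533 (0.95) and Pde4a (0.94). Hey2 had at most 9 UMIs in any sum of aCap, veins or LEC, so its correlations rest in part on values near 0. Within gCap, however, barcodes with Esm1 held 2, 4 and 3 Hey2 UMIs, or 1.52, 2.05 and 1.76 CPM against 2.78, 2.21 and 2.08 CPM in the rest. Dll4 was most like Mast4 (0.90), Trim2 (0.88) and Inpp5f (0.87), Jag2 most like Syt11 (0.88), Prxl2c and Dctn1 (both 0.86), Notch1 most like 0610009E02Rik (0.88), Armcx3 and Efna1 (both 0.87), Notch4 most like Ak3 (0.95), Tmeff1 and Tmem184b (both 0.94), and Hes1 most like Srebf2 (0.94), Nhlrc1 and Ubl5 (both 0.90). The sums share cells' class and library, so these are descriptions.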

How the data were processed

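The deposited files are unfiltered count matrices of UMIs per gene and barcode, which the authors made from Chromium 3′ libraries with Cell Ranger 7.2.0 on mm10, per the file headers and the submitters' processing notes. The notes also name Seurat 4.4.0. Whether intronic reads were counted is not given in the sources used here.

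Barcodes with 1000 to 5000 detected genes, under 20% mitochondrial UMIs and at least 2 UMIs of Pecam1 and Cdh5 were summed by library and class. A class needed at least 5 of its markers in aCap, arteries and veins and 4 in LEC and gCap. It had to lead by 2 markers where gates competed. An aCap barcode could hold at most 5 gCap markers, and gCap could hold few markers of other classes. These limits were set after the markers, and not the Notch genes, had been viewed, and most markers head the study's own lists, made on cells that include these libraries. The members and lists were chosen with earlier results of these data known. Of the 32285 gene identifiers, 32158 (99.6%) matched GENCODE.

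Levels are CPM with exact Poisson intervals, ratios have exact conditional binomial intervals and shares Clopper-Pearson intervals, all at 95%. The floor of a count of 0 is 3 UMIs of the class in that library. Genes were counted against 1.5-fold where their CPM averaged 5 or more over the libraries. The other pathway genes named are those past 1.5-fold, at most 6 per comparison by size, and for each member above 5 CPM in a class the 3 most correlated genes. Intervals treat UMIs as independent and say nothing of the spread between mice. Total UMIs were 140601123, 132566934 and 124085451 in the control, 6 h and 30 h libraries, of which 90853430, 87340328 and 81485079 lay in endothelial barcodes. No doublet caller was used in the main values, and leaving out barcodes with high Scrublet scores (scanpy 1.11.5, 0.8% per 1000 barcodes) was 1 of 11 alternatives. The others changed the filters, depth, scaling, gates or free RNA, or left out shared barcodes. Interval code was tested on simulated data. Python 3.11.15, numpy 2.4.6, scipy 1.17.1, pandas 2.3.3 and matplotlib 3.10.9 were used.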

Additional observations from a re-analysis of the deposited data

Results flagged for a closer look

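For several members classes lay at least 1.2-fold on opposite sides of 0 with intervals that did not hold 0. The difference between the classes was not tested. At 30 h against the control the log2 ratio of Dll4 was 0.31 in gCap and −0.46 in veins, and against 6 h it was 0.37 in arteries and −0.48 in veins. Vein Dll4 rested on 155, 114 and 92 UMIs, and at 30 h its 14.7 CPM lay under the 17.1 CPM expected from free RNA, and no ratio was left after free RNA was subtracted. With barcodes thinned to 2000 UMIs before gating its 30 h ratio to the control was 0.91, from 3 and 2 UMIs, on the same side as gCap. Against 6 h the thinned ratios kept their opposite sides, at 0.72 in arteries and −0.86 in veins, the latter from 3 and 5 UMIs. For Dll1 the ratio of 30 h against 6 h was 0.35 in veins and −0.83 in aCap, the latter from 36 and 50 UMIs. At 30 h aCap Dll1 was at 2.70 CPM, where free RNA would bring 2.90 CPM. Jag2 had ratios of 0.67 in aCap and −0.44 in veins at 30 h against the control, and of 0.86 and −0.57 against 6 h. Thinned before gating, the vein ratios were 0.63 and 0.70, from 13, 9 and 16 UMIs, on the same side as aCap. The Dll1 ratio in aCap was then 0.16. Hey1 had ratios of 0.74 in LEC and −0.55 in arteries at 6 h, and of 0.72 in LEC and −0.77 in veins at 30 h. The LEC values came from 28, 38 and 43 UMIs. At 30 h the LEC ratio was −0.13 with at least 300 detected genes and no upper limit, and −0.12 with stricter gates, on the same side as veins.

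Empty droplets, barcodes of at most 100 UMIs that hold free RNA, were looked at as well. They belong to the same libraries and their RNA was shed by cells of the same pools, so a like direction there is no separate support. Dll1 was at 55.7 CPM there at 6 h and 44.7 CPM at 30 h, against 29.6 CPM in the control. Jag2 was at 38.1 CPM at 30 h, against 23.1 CPM in the control. Each was past 1.5-fold with intervals that did not overlap. In endothelial barcodes of these libraries Dll1 was past 1.5-fold of the control at both times, while Jag2 at 30 h was not.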

How the results depend on the processing

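All 11 alternatives were run. No paired analysis was possible because each group is 1 library. Without barcodes of other cells' markers, 1 member and not 2 was past 1.5-fold at 30 h against the control, since the ratio of Dll1 was 0.58. Thinned to 2000 UMIs before gating, 4 and not 2 other pathway genes were past 1.5-fold at 6 h. Thinning also reversed the ratio of Dll1 in aCap (30 h against 6 h, 0.16) and arteries (30 h against control, −0.26) and of Notch4 in arteries (30 h against 6 h, −0.13), with 100, 90 and 137 artery barcodes left. Among ratios under 1.5-fold it turned vein Dll4 (0.91) and Jag2 (0.63) and artery Hey1 (0.12) at 30 h against the control, and vein Jag2 (0.70) and Hey1 (1.19) against 6 h, among others. Subtraction of free RNA turned aCap Hey1 against the control at 6 h (1.86) and 30 h (0.61), and its ratio of 30 h to 6 h was then −1.25. Hey1 in LEC at 30 h against the control was −0.13 with at least 300 detected genes and no upper limit, and −0.12 with stricter gates. The cause was not tested. Of 31 member ratios past 1.5-fold, 27 kept their sign and 13 stayed past 1.5-fold under every alternative that gave a value. In all endothelial barcodes Dll1 ranged from 0.70 to 0.80 at 6 h, Hes1 from 0.78 to 0.89 and Hey1 from −0.49 to −0.37 at 30 h. LEC fell under 50 barcodes when thinned, at 6 h (34) and 30 h (27), and got no value. Small counts limit LEC, Hey2 and Heyl.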

Other observations

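In the control library gCap held 61.7% of the Dll1 UMIs and veins 18.3%. At 6 h gCap held 69.9% and veins 9.6%, and at 30 h gCap held 61.2% and veins 16.7%. Of all endothelial UMIs gCap held 56.5%, 61.3% and 51.6% and veins 8.45%, 6.39% and 7.69%, a baseline that moved in the same direction. Dll1 and Dll4 were seen together in 1.24%, 2.31% and 2.6% of thinned gCap barcodes, where the product of their shares was 1.33%, 2.36% and 2.50%. Barcodes with at least 2 Hes1 UMIs after thinning made up 11%, 11% and 21.9% of gCap. In empty droplets Hey1 was at 199.6, 157 and 134 CPM and Notch4 at 83.6, 73.9 and 106 CPM.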
